A study of Mus musculus with 7 samples.

Results

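The 4 genes described here are grouped as genes of thymic egress, the exit of thymocytes from the thymus. S1pr1 and S1pr4 encode receptors for sphingosine-1-phosphate (S1P), Klf2 encodes a zinc finger transcription factor, and Ccr7 encodes a chemokine receptor. They were taken by name, with every array probe whose gene name was one of these symbols or an older alias (Edg1 for S1pr1, Edg6 for S1pr4). This gave 5 probes of 41174, for 4 of the 23593 genes tested. The series holds 7 Agilent 2-colour arrays of flow-sorted mouse thymocyte RNA, and each array paired RNA of DN4 cells (CD4 and CD8 double-negative thymocytes of the last such stage) with RNA of DN3 cells (the stage before it). The DN4 cells came from mice that carried the KN6 γδ T cell receptor transgene and were either Lig+ (4 arrays) or Lig- (3 arrays), which the labels give as with or without the ligand of that receptor. The source names of Lig+ replicates 3 and 4 and Lig- replicate 3 give the group but do not name DN4. These were taken as DN4, as in the series design. The DN3 cells on all 7 arrays came from mice without the transgene. All mice were BALB/c and Rag2-/-, so they could not rearrange receptor genes of their own. Age, the number of mice behind a sample, and whether the DN3 RNA was 1 pool are not given in the sources used here. The DN3 cells differed from the DN4 cells in stage and in transgene, and those effects cannot be told apart.

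S1P is kept high in blood and lymph and low in the thymus, and a mature thymocyte that carries S1PR1 follows this gradient out of the organ. FOXO1 switches on Klf2, and KLF2 switches on S1pr1 and other genes of the migrating, resting T cell; CD69, a surface protein induced by receptor signals, binds S1PR1 and pulls it from the surface. CCR7 draws thymocytes towards cells that make its ligands, in the medulla and at exit sites. S1PR4 is a second S1P receptor of lymphocytes, coupled to other signals and not needed for exit in the way S1PR1 is.

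The promoters show which letters known for KLF, FOXO and MEF2 factors stand next to the starts of these genes. Of the 4 genes, 2 had an entry in the RefSeq promoter table (GRCm38.p6), and their 250 bases before the start are given, in the direction of the gene, with matches in capitals. That of Klf2 lies at chr8:72318812-72319061 on the plus strand and that of S1pr4 at chr10:81500138-81500387 on the minus strand.
Klf2: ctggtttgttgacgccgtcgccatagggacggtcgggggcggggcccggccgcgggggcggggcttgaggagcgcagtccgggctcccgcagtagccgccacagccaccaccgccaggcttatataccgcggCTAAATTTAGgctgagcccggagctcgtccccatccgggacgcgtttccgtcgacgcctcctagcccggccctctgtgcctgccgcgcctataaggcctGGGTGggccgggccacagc
S1pr4: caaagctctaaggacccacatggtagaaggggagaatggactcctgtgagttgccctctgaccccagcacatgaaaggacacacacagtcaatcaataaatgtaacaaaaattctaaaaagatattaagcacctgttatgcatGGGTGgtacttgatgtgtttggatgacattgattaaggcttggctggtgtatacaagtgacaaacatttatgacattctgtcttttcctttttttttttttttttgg
The KLF core CACCC was searched on both strands and was found once in each, as GGGTG, 19 bases before the start of Klf2 and 107 bases before that of S1pr4. It was present in 57.5% of all 32851 promoters of the table (300 bases each), so its presence is common. The FOXO core TGTTTAC was in neither promoter and in 3.65% of all. The MEF2 core (CTA and TAG with any 4 bases between), searched after the Klf2 sequence had been read, was found once in Klf2, as CTAAATTTAG, 118 bases before the start, and in 3.69% of all promoters; S1pr4 held none. MEF2 factors are known activators of Klf2. The searched motifs did not overlap one another.

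All 5 probes were well above background in both channels on all 7 arrays. Raw mean signals of the S1pr1 probe on the Lig+ arrays (replicates 1 to 4) were 68211, 65952, 41003 and 29975 in the DN4 channel, against 860, 3679, 918 and 593 in the DN3 channel. On the Lig- arrays (replicates 1 to 3) they were 24540, 17334 and 9739 for DN4, against 443, 1222 and 335 for DN3. These values are not normalised, and the signal of DN4 RNA was many times that of DN3 RNA on each array. The probe lies at chr3:115486015-115486074 on the minus strand (mouse build mm7, per the scanner files).

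The 2 replicate 2 arrays, which shared a slide, stood apart for these genes. The ratio to DN3 was lowest on replicate 2 in both groups for S1pr1, S1pr4, Klf2 (probe A_51_P144264) and Ccr7. Of all genes, 11.3% showed this pattern. The second Klf2 probe (A_52_P442031) was lowest on replicate 2 in Lig+ but on replicate 3 in Lig- (0.12). Il2ra and Ptcra are genes of the DN3 stage. On replicate 2 of Lig+ and Lig- Il2ra stood at -5.49 and -6.24, and Ptcra at -5.87 and -5.55. Both were least depleted on replicate 1 (Il2ra -4.37 and -4.64, Ptcra -3.69 and -3.52), which had the other dye order. On replicates 3 and 4, with the dye order of replicate 2, both were more depleted than on replicate 2 of their group. There Il2ra was -6.38 and -6.69 in Lig+ and -6.36 in Lig-. Ptcra was -6.90 and -7.17 in Lig+ and -6.41 in Lig-. The 99th percentile of the log2 ratios over all genes was 2.36 and 2.30 on the replicate 2 arrays and 2.52 to 2.95 on the others. The members' values are also given without these arrays.

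S1pr1, Klf2 (by probe A_51_P144264) and Ccr7 were among the genes most enriched in DN4 over DN3 cells in both groups. This probe was the brighter of the 2 Klf2 probes by mean intensity over both channels, so its DN4 signal enters that choice. S1pr4 rose less. In Lig+ cells S1pr1 was 63.7-fold, Klf2 56.7-fold, Ccr7 28.4-fold and S1pr4 3.72-fold higher than in DN3 cells, and in Lig- cells 37.3-fold, 35.5-fold, 20.5-fold and 1.94-fold. All 4 passed the test in both comparisons, where 17.4% of all genes were called higher in Lig+ and 16.3% in Lig-. Ranked by log2 change among 23593 genes, S1pr1 stood at place 5, Klf2 at 7, Ccr7 at 19 and S1pr4 at 482 in Lig+, and at 11, 13, 32 and 1354 in Lig-. Without slide 2 the log2 changes were 6.35 for S1pr1, 6.18 for Klf2, 5.12 for Ccr7 and 2.03 for S1pr4 in Lig+, and 5.57, 5.55, 4.73 and 1.04 in Lig- (adjusted p 1.79e-05 to 0.00359, limma). Because arrays measure RNA of a sorted population, more cells that express a gene and more RNA per cell cannot be told apart. Both comparisons measure against the DN3 channel, so their values are set side by side and neither supports the other.

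**Figure D1:**
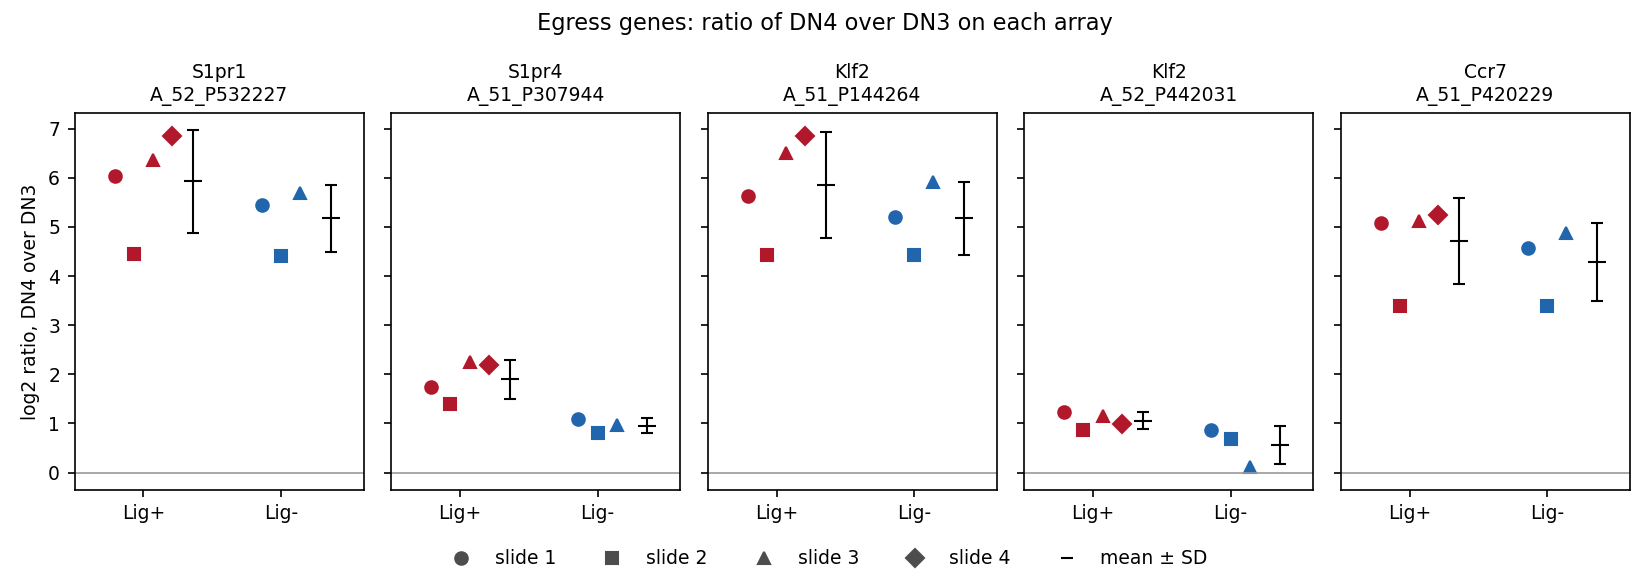
Log2 ratio of DN4 over DN3 (y axis) for each of the 5 probes, with 1 point per array, a symbol per slide and the mean ± SD beside each group (Lig+ n = 4, Lig- n = 3). S1pr1, Ccr7 and the Klf2 probe A_51_P144264 lie between 3.38 and 6.86, and S1pr4 and the other Klf2 probe between 0.12 and 2.24; squares (slide 2) are the lowest points of both groups except for Klf2 probe A_52_P442031 in Lig-.

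Klf2 is the factor that sits upstream of S1pr1. The probe used for the gene (A_51_P144264, chr8:70844133-70844192, plus strand, mm7) gave log2 ratios of DN4 over DN3 of 5.64, 4.44, 6.51 and 6.85 on Lig+ replicates 1 to 4. On Lig- replicates 1 to 3 it gave 5.19, 4.42 and 5.91. Each value is far above 0, and the groups overlap. The fitted change was 5.82 ± 0.464 (log2, SE; adjusted p = 1.7e-04, limma with Benjamini-Hochberg adjustment over 23593 genes) in Lig+ and 5.15 ± 0.508 (adjusted p = 5.82e-04) in Lig-. On an arbitrary channel scale (log2 after loess and Aquantile normalisation) the DN4 level was 16.38 to 16.82 in Lig+ and 15.51 to 16.39 in Lig-, and the DN3 level was 9.60 to 12.38.

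The array holds a second probe for Klf2, and it gave a much smaller ratio. A_52_P442031 (chr8:70842757-70842816, plus strand, mm7) starts 1376 bases before the other in the direction of the gene. Its log2 ratios were 1.22, 0.86, 1.16 and 1.00 in Lig+ and 0.88, 0.68 and 0.12 in Lig-, so that DN4 still exceeded DN3 on all 7 arrays. The fit gave 1.14 ± 0.115 in Lig+ (2.21-fold, adjusted p = 4.75e-04 over 34889 probes) and 0.62 ± 0.126 in Lig- (1.53-fold, adjusted p = 0.0116), where 17.7% and 16.3% of all probes were called higher. The gap between the probes was 3.58 to 5.86 log2 units from array to array. The probes thus shared a direction but not a size, and with their mean used for the gene Klf2 was 11.2-fold higher in Lig+ and 7.38-fold higher in Lig-. The Lig- change of the second probe no longer passed without Lig- replicate 1 (0.51, adjusted p = 0.201) or without Lig- replicate 2 (0.50, adjusted p = 0.0534). Over both channels A_51_P144264 was the brighter probe (mean log2 intensity 13.58 against 13.1). In the DN3 channel A_52_P442031 had the higher mean level, 12.68 (11.81 to 13.55) against 10.8 (9.60 to 12.38). Its mean DN4 level was lower, at 13.98 against 16.63 in Lig+ and 12.92 against 16.01 in Lig-. The size of the Klf2 change and its rank thus depend on the probe chosen. Why the probes differ was not tested.

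S1pr1, the receptor for exit, had log2 ratios of 6.04, 4.45, 6.36 and 6.86 on Lig+ replicates 1 to 4 and 5.44, 4.40 and 5.69 on Lig- replicates 1 to 3. The replicate 2 arrays had nearly the same low value in both groups. The change was 5.99 ± 0.439 in Lig+ (adjusted p = 1.23e-04, limma) and 5.22 ± 0.481 in Lig- (adjusted p = 4.4e-04). The ratios of S1pr1 lay close to those of the Klf2 probe A_51_P144264, with a root mean square difference of 0.205 log2 units over the 7 arrays. This distance compares the size of the ratios, so only genes with changes about as large could be near. Among 17808 genes with a symbol Klf2 was the gene nearest to S1pr1, and S1pr1 the nearest to Klf2. The next in distance were Gimap4 and Gimap3, GTPases of lymphocyte survival, at 0.553 and 0.661 from S1pr1 and 0.558 and 0.666 from Klf2. This likeness is across arrays that share their DN3 reference and slides, and the second Klf2 probe does not have it.

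S1pr4 (A_51_P307944, chr10:81292729-81292788, minus strand, mm7) had log2 ratios of 1.75, 1.40, 2.24 and 2.19 in Lig+ and 1.1, 0.80 and 0.98 in Lig-. The groups do not overlap, as was so, with Lig+ above Lig-, for 10.2% of all genes. The change against DN3 was 1.90 ± 0.163 in Lig+ (adjusted p = 2.3e-04, limma) and 0.96 ± 0.178 in Lig- (adjusted p = 0.00819), and the latter did not pass without Lig- replicate 1 (0.79, adjusted p = 0.162). The S1pr4 probe was bright in DN3 RNA too, with raw DN3 signals of 2051 to 3770 against 2328 to 9665 for DN4. The genes nearest to S1pr4 over the 7 arrays were Ppm1j, a protein phosphatase, Parm1, and Cdc25b, the phosphatase that activates cyclin-dependent kinases for mitosis, at 0.191, 0.209 and 0.223.

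Ccr7 (A_51_P420229, chr11:99253592-99253652, minus strand, mm7) had log2 ratios of 5.08, 3.399, 5.11 and 5.25 in Lig+ and 4.58, 3.38 and 4.88 in Lig-. Replicate 2 of either group lay more than 1 log2 unit under the other arrays of its group. The change was 4.83 ± 0.392 in Lig+ (adjusted p = 1.84e-04, limma) and 4.36 ± 0.429 in Lig- (adjusted p = 5.78e-04). Its nearest genes were Tlr1, a receptor for bacterial lipopeptides, Cd226, an activating receptor of T and NK cells, and Gimap6, at 0.281, 0.385 and 0.395. S1pr1 and Klf2 were farther from Ccr7, at 1.11 and 1.1. The ratios of Ccr7 were lower than those of both on every array, and the distance includes that difference in size.

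The DN4 populations with and without the ligand were compared by the difference of the ratios, Lig+ minus Lig-. S1pr4 alone of the 4 passed, at 0.94 ± 0.23 (1.92-fold; 95% interval 0.384 to 1.5; adjusted p = 0.0493, limma), where 4.81% of all genes were called higher. The differences for S1pr1, Klf2 and Ccr7 were 0.77 (95% interval -0.729 to 2.27), 0.67 (-0.911 to 2.26) and 0.47 (-0.87 to 1.81), with adjusted p of 0.513, 0.602 and 0.674. Their intervals hold both no difference and a difference of more than 1 log2 unit. Without each array in turn they were 0.359 to 1.24, 0.191 to 1.16 and 0.024 to 0.926, and none passed. With the slides as fixed terms (slides 1 to 3) they were 0.44 ± 0.146, 0.35 ± 0.132 and 0.25 ± 0.112 (adjusted p = 0.107, 0.136 and 0.196), and without slide 2 they were 0.78, 0.63 and 0.386 (adjusted p = 0.0623, 0.0666 and 0.0928). Within the slides that held both groups (1, 2 and 3), the S1pr4 ratio was higher in Lig+ by 0.655, 0.603 and 1.27, and the S1pr1 ratio by 0.599, 0.0444 and 0.675. The second Klf2 probe differed by 0.53 ± 0.162 (adjusted p = 0.0977 over probes, where 4.57% were called higher). All 4 genes had the higher ratio in Lig+ on each of these slides, as did 28.6% of all genes. The S1pr4 call lies close to the threshold: without each array in turn the difference was 0.8248 to 1.105 with adjusted p of 0.0114 to 0.185, and it passed only without Lig+ replicate 2. It passed with slide as a random block (adjusted p = 0.00993), with the slides as fixed terms (adjusted p = 0.0256) and without slide 2 (adjusted p = 0.0244).

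The DN4 channels alone, a comparison added after the ratios had been seen, gave a different order. An effect shared by both channels of an array cancels in the ratio but not in a single channel. Such an effect cannot be told apart here from a difference in DN4 RNA. The DN3 level of S1pr1 was also higher on the Lig+ array of slides 1, 2 and 3, as given below. The S1pr1 level of the DN4 channel was 15.56, 15.76, 16.34 and 15.99 in Lig+ and 13.89, 14 and 14.12 in Lig-, on the log2 scale of the channels. The groups lie more than 1 log2 unit apart, and the raw signals given above do not overlap either. The difference was 1.88 ± 0.169 (3.68-fold, adjusted p = 0.00148, limma), where 4.04% of all genes were called higher, and it was 1.67, 1.76 and 2.22 within slides 1, 2 and 3. All 4 genes had the higher DN4 level in Lig+ on each of these slides, as did 32.6% of all genes. It passed without each array in turn (1.77 to 1.97, adjusted p 0.00169 to 0.0138), with no normalisation between arrays (1.72, adjusted p = 0.0253) and on Agilent's processed signals (1.87, adjusted p = 0.00275).

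Ccr7 was 15.18, 15.40, 16.03 and 16.10 in the DN4 channel of Lig+ and 14.18, 14.32 and 14.81 in that of Lig-, again without overlap. The difference was 1.199 ± 0.221 (2.30-fold, adjusted p = 0.0195, limma). It did not pass with no normalisation between arrays (1.04, adjusted p = 0.12), nor without Lig+ replicate 1, Lig- replicate 1, Lig- replicate 2 or Lig+ replicate 3 (1.02 to 1.28, adjusted p 0.0607 to 0.0844). S1pr4 was 12.76, 12.73, 13.9 and 14 in Lig+ against 11.95, 11.83 and 12.08 in Lig-, a difference of 1.36 ± 0.343 (adjusted p = 0.0588), which passed with slide as a random block (adjusted p = 0.00932) and without Lig+ replicate 2 (adjusted p = 0.013). Klf2 differed by 0.62 ± 0.23 (95% interval 0.0761 to 1.17; adjusted p = 0.169), and passed with slide as a random block (adjusted p = 0.0171). DN4 levels of the groups did not overlap, Lig+ above Lig-, for S1pr1, S1pr4 and Ccr7 and for 11.1% of all genes.

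The gap between ratio and channel lies in the DN3 signal. The S1pr1 level of the DN3 channel was 9.53, 11.32, 9.98 and 9.13 on Lig+ arrays and 8.45, 9.60 and 8.44 on Lig- arrays, although both were labelled as the same DN3 population. On slides 1, 2 and 3 it was higher on the Lig+ array by 1.07, 1.72 and 1.54, and that of Ccr7 by 0.50, 1.06 and 0.991. The DN3 channel was higher on the Lig+ array of each of these slides for all 4 genes and for 28.6% of all genes. The difference between DN3 channels was 1.11 ± 0.545 for S1pr1, 0.73 ± 0.37 for Ccr7, 0.42 ± 0.154 for S1pr4 and -0.051 ± 0.823 for Klf2, all with adjusted p of 1; 0 of 23593 genes passed with limma, and 295 had an unadjusted p under 0.05. Slide 2 had the highest DN3 levels of S1pr1, Klf2 (probe A_51_P144264) and Ccr7 within each group. Raw DN3 signals of this Klf2 probe were 8202 and 6754 there, against 712 to 2409 on the other arrays. The second Klf2 probe (A_52_P442031) did not share this. Its DN3 level was highest on Lig+ replicate 4 (13.55) and Lig- replicate 3 (13.31), against 12.62 and 11.95 on slide 2. Whether the DN3 signal of these genes came from the DN3 RNA itself was not tested.

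**Figure D2:**
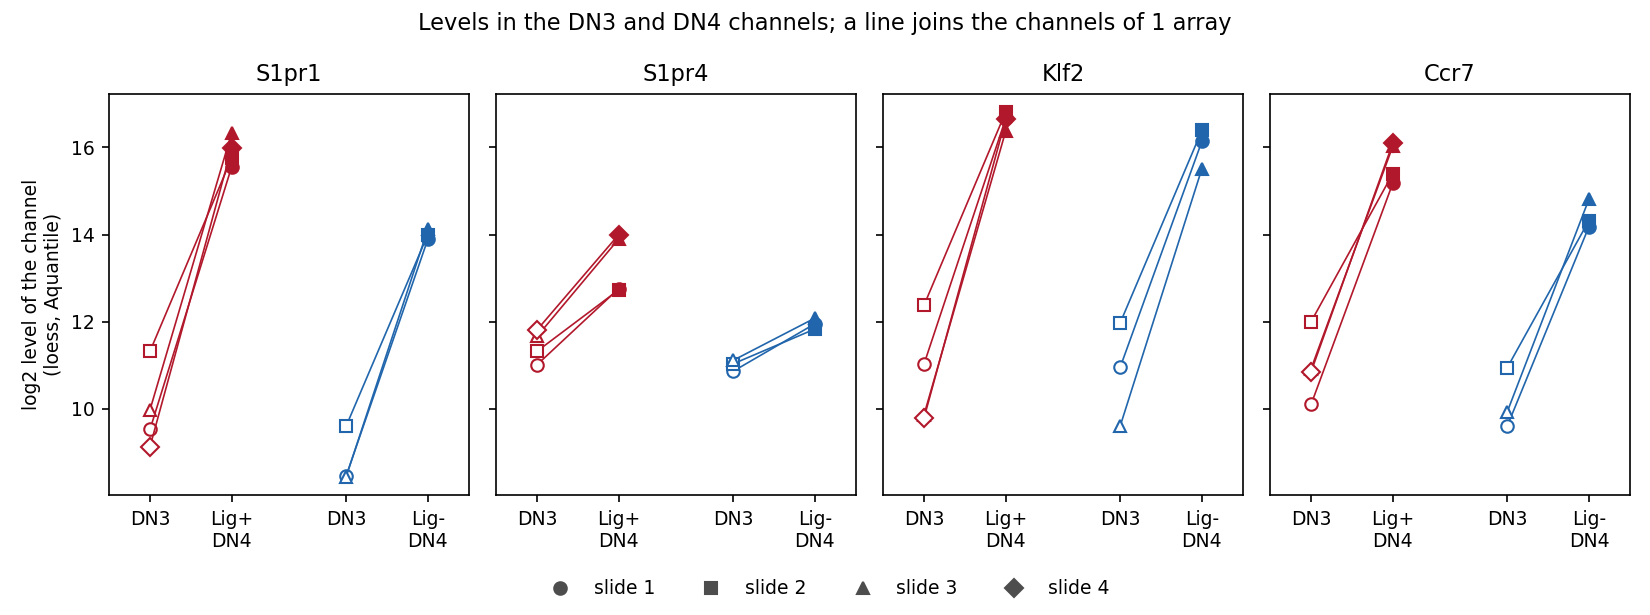
Log2 level (loess and Aquantile, y axis) of S1pr1, S1pr4, Klf2 (probe A_51_P144264) and Ccr7 in the DN3 channel (open) and DN4 channel (filled); a line joins the channels of 1 array, and symbols mark the slide. DN4 levels of S1pr1 lie between 15.56 and 16.34 in Lig+ and between 13.89 and 14.12 in Lig-, and squares (slide 2) have the highest DN3 level of each group except for S1pr4.

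**Figure D3:**
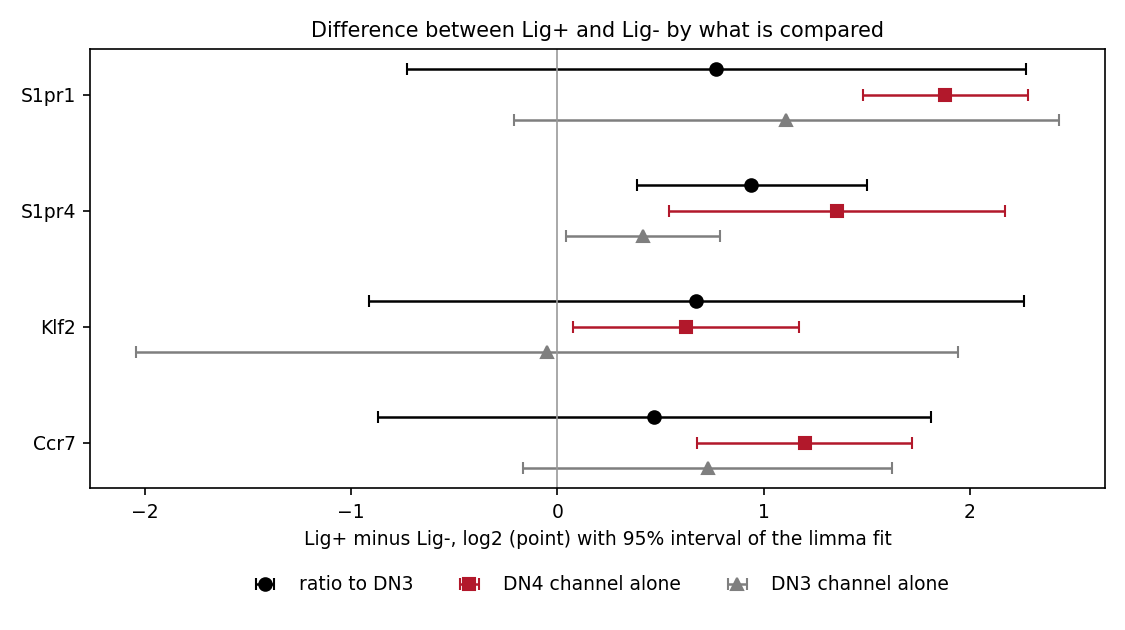
Difference of Lig+ and Lig- (log2, x axis) with its 95% interval for each gene, from the ratio to DN3 (circles), the DN4 channel alone (squares) and the DN3 channel alone (triangles). For S1pr1 the interval is 1.48 to 2.28 in the DN4 channel and -0.729 to 2.27 in the ratio.

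The other S1P receptors did not rise. Of the 5 receptor genes, all measured, 2 were called higher and 1 lower against DN3 in either group (17.4% and 18.9% of all genes were called higher and lower in Lig+, 16.3% and 15% in Lig-), and the median log2 change was -0.26 in Lig+ and -0.14 in Lig-, against 0.00 over all genes. S1pr2, a receptor that restrains migration, fell by 1.17 ± 0.096 in Lig+ (adjusted p = 1.9e-04, limma) and stood at -0.14 in Lig- (adjusted p = 0.366). The difference passed (-1.03 ± 0.14, adjusted p = 0.00659), where 6.97% of all genes were called lower. Its 3 probes ran from -1.17 to -0.898 in Lig+ and from -0.727 to -0.145 in Lig-, and with their mean S1pr2 fell in Lig- too (-0.51, adjusted p = 0.00107). S1pr3 fell by 1.03 ± 0.19 in Lig- (adjusted p = 0.00713; -0.87 and adjusted p = 0.146 without Lig- replicate 1) and stood at -0.53 in Lig+ (adjusted p = 0.0512), where it passed without slide 2 (-0.68, adjusted p = 0.0101) and without Lig+ replicate 2 alone. S1pr5, the receptor of NK cell exit, stood at -0.26 and -0.25 (adjusted p = 0.135 and 0.201) and was above background in the DN3 channel on 4 of 7 arrays.

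Genes that make or remove S1P moved in both directions: of 8 measured from a list of 11, 1 was called higher and 1 lower in Lig+, and 2 higher and 2 lower in Lig-, beside 17.4% and 18.9%, and 16.3% and 15%, of all genes. Sgpl1, the S1P lyase, rose in both (0.71 ± 0.076, adjusted p = 5.97e-04, and 1.16 ± 0.084, adjusted p = 1.63e-04, limma). Plpp3, a lipid phosphatase that removes S1P, fell by 1.44 ± 0.23 in Lig+ (adjusted p = 0.00354) and stood at 0.64 in Lig- (adjusted p = 0.11; it passed without slide 2 at 0.92, adjusted p = 0.0146, and without Lig- replicate 2 alone). The difference was -2.08 ± 0.33 (adjusted p = 0.0121; -2.21 and adjusted p = 0.0594 without replicate 1 of either group). Plpp2, of the same family, stood at 0.34 in Lig+ (adjusted p = 0.0672; it passed without slide 2 at 0.41, adjusted p = 0.0214, and without Lig+ replicate 2 alone) and fell by 0.78 ± 0.13 in Lig- (adjusted p = 0.00505). Sphk2, an S1P-making kinase, stood at 0.64 in Lig- (adjusted p = 0.043), a call lost without 5 of the arrays in turn (Lig+ replicates 1 and 3 and Lig- replicates 1, 2 and 3), and at 0.07 in Lig+ (adjusted p = 0.789).

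By the probe used for the gene (A_51_P144264), Klf2 had the largest change among the 17 Klf genes. Its second probe (A_52_P442031) gave 1.14 in Lig+ and 0.62 in Lig-. These were less than the changes of the probe used for Klf7, given below. The 2 Klf7 probes ran from 1.06 to 1.31 in Lig+ and from 0.715 to 1.49 in Lig-. In Lig+ 6 of the 17 were called higher and 3 lower, in Lig- 5 and 2, with medians of 0.18 and 0.034; of all genes 17.4% and 18.9% were called in Lig+ and 16.3% and 15% in Lig-. Klf7 rose by 1.31 ± 0.14 in Lig+ (adjusted p = 6.1e-04, limma) and by 1.49 ± 0.15 in Lig- (adjusted p = 7.07e-04). Klf9 fell by 1.41 ± 0.20 (adjusted p = 0.00198) and by 1.40 ± 0.22 (adjusted p = 0.0039; -1.35 and adjusted p = 0.0814 without Lig- replicate 1). Klf11 fell by 1.11 ± 0.17 in Lig+ (adjusted p = 0.00321; 0.0598 without Lig+ replicate 1), and its 2 probes ran from -1.11 to -0.303.

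The list of 15 regulators and targets of the FOXO and KLF2 axis holds S1pr1, Klf2 and Ccr7 themselves. In it 7 were called higher and 2 lower in Lig+, and 10 and 2 in Lig-, with medians of 0.28 and 0.57. S1pr1, Klf2 and Ccr7 are among those called higher in both groups. Of all genes 17.4% were called higher and 18.9% lower in Lig+, and 16.3% and 15% in Lig-. Itgb7, an integrin chain for homing to the gut, rose by 5.28 ± 0.31 in Lig+ (adjusted p = 5.29e-05, limma) and by 4.64 ± 0.34 in Lig- (adjusted p = 1.76e-04). The next 5 genes were picked after their values had been seen. Foxo1, the activator of Klf2, rose by 3.44 ± 0.093 in Lig+ (adjusted p = 6.04e-06) and by 2.71 ± 0.10 in Lig- (adjusted p = 1.95e-05), with a difference of 0.73 ± 0.13 (adjusted p = 0.0192), a call lost without Lig+ replicate 1 or 4 or any 1 of the 3 Lig- arrays (0.68 to 0.77, adjusted p 0.0527 to 0.116). Mef2a, a MEF2 factor, rose by 1.23 ± 0.056 and by 2.12 ± 0.061 (adjusted p = 2.01e-05 and 1.09e-05), a difference of -0.89 ± 0.079 (adjusted p = 0.00177; with the mean of its 3 probes -0.52, adjusted p = 0.0795). Mef2c, of the same family, fell by 1.56 ± 0.13 in Lig+ and by 1.67 ± 0.14 in Lig- (adjusted p = 1.91e-04 and 2.98e-04). Mef2d stood at -0.042 and 0.57 (adjusted p = 0.898 and 0.0973). Il7r, the IL-7 receptor chain and a known FOXO1 target, did not follow S1pr1: it stood at 0.20 in Lig+ (adjusted p = 0.326) and fell by 2.38 ± 0.15 in Lig- (adjusted p = 9.39e-05). The difference between the groups was 2.58 ± 0.19 (adjusted p = 0.00117).

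Of 20 genes of egress signalling and its brakes, 15 were called higher and 2 lower in Lig+, and 13 and 2 in Lig-, with medians of 0.47 and 0.71; of all genes 17.4% were called higher and 18.9% lower in Lig+, and 16.3% and 15% in Lig-. Without slide 2 the counts were 14 and 2, and 11 and 3, where 19.6% and 16.3% of all genes were called higher. Cd69, the brake on S1PR1, rose by 4.19 ± 0.13 in Lig+ (adjusted p = 6.66e-06, limma) and by 2.96 ± 0.14 in Lig- (adjusted p = 3.56e-05). Its ratios were 4.05 to 4.54 in Lig+ and 2.76 to 3.41 in Lig-, and the difference passed (1.23 ± 0.18, adjusted p = 0.00902; 0.0662 without replicate 1 of either group). Rgs1, which shuts off G protein signals of such receptors, rose by 3.46 ± 0.19 and by 2.05 ± 0.21 (adjusted p = 4.03e-05 and 6.25e-04). Its difference of 1.40 ± 0.27 (adjusted p = 0.0222) did not pass when any array but Lig+ replicate 2 or Lig- replicate 3 was left out (1.22 to 1.39, adjusted p 0.0579 to 0.122). Arrb2, an arrestin, rose by 2.72 ± 0.07 and by 2.61 ± 0.077 (adjusted p = 5.84e-06 and 1.09e-05). Cxcr4, the chemokine receptor of the thymic cortex, fell by 1.74 ± 0.20 and by 1.04 ± 0.22 (adjusted p = 7.96e-04 and 0.0131; in Lig- -1.27 and adjusted p = 0.08 without Lig- replicate 1, and -0.995 and adjusted p = 0.059 with slide as a random block). Thus the RNA of S1pr1 and of its known brakes Cd69 and Rgs1 was high in the same sorted populations. Of the ligands and scavenger of CCR7, 3 of 4 list genes were measured with Ccr7 counted among them; Ackr4, the scavenger, stood at 0.18 ± 0.055 in Lig+ (adjusted p = 0.0463) and did not pass without 6 of the 7 arrays in turn, all but Lig+ replicate 4 (adjusted p 0.069 to 0.359).

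**Figure D4:**
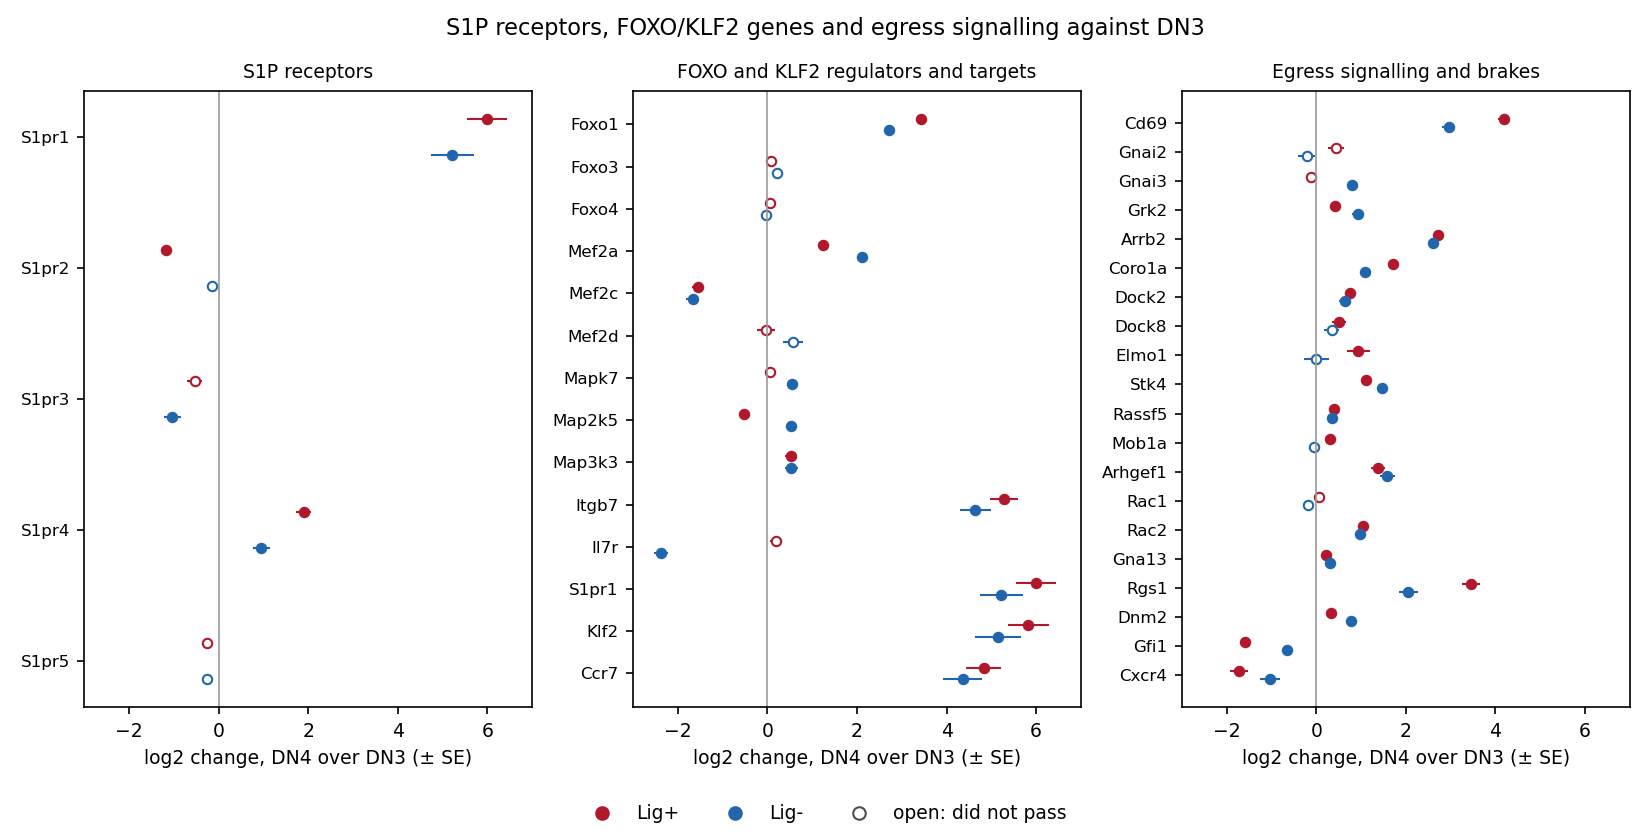
Log2 change of DN4 over DN3 (x axis, ± SE) for the S1P receptors, genes of the FOXO and KLF2 list and the egress signalling list, in Lig+ (red) and Lig- (blue); filled points passed the test and open points did not. S1pr1, Klf2, Ccr7 and Itgb7 lie farthest to the right, and Il7r lies at 0.20 in Lig+ and -2.38 in Lig-.

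Most DN3 stage markers fell in DN4 cells, and T lineage markers moved in both directions. Calls of all markers were counted beside 17.4% of all genes called higher and 18.9% called lower in Lig+, and 16.3% and 15% in Lig-. Of 6 DN3 stage genes 5 were called lower in Lig+ and 6 in Lig-, with Il2ra at -5.29 and -5.45. Dtx1 was the exception in Lig+ (-0.07, adjusted p = 0.768, limma). The 7 T lineage markers were above background on every array. Of them 1 was called higher and 4 lower in Lig+, and 2 and 2 in Lig-. Cd3g stood at -1.99 and -2.35, and Cd247 at 0.89 and 1.38. Endothelial cells express S1pr1 and Klf2. Of 9 measured endothelial markers 7 were above background on every array in each population, their mean level over the list was 8.77 to 8.97 in Lig+, 8.81 to 8.85 in Lig- and 8.86 to 9.03 in DN3, and 1 was called higher and 3 lower in either group. The 1 was Pecam1 (1.06 and 1.24), which T cells can express; Cdh5 and Cldn5 fell (-0.32 and -0.76 in Lig+, -0.55 and -0.74 in Lig-), and Cdh5, which defines endothelium, was above background in the DN4 channel on 2 of 4 Lig+ and 0 of 3 Lig- arrays and in the DN3 channel on 4 of 7. Mature dendritic cells express Ccr7. Of 9 measured dendritic cell markers 2 were called higher in Lig+ (Cd83 at 1.81 and H2-Ab1 at 0.76) and 3 lower in Lig-, and their mean level was 10.08 to 10.62 in Lig+, 9.13 to 9.501 in Lig- and 9.79 to 10.26 in DN3. Itgax stood at 0.013 and -0.029 and Fscn1 at -0.09 and -0.10 (none passed). In Lig+ and Lig- in turn, the calls higher and lower were 1 and 8, then 0 and 9, of 10 macrophage and monocyte markers, 0 and 1, then 3 and 1, of 8 B cell markers, 3 and 2, then 2 and 1, of 7 NK and innate lymphoid markers, and 0 and 0, then 2 and 0, of 5 markers of the double-positive stage. The B cell genes called higher in Lig- were Blk (4.22, adjusted p = 0.00184), Ebf1 (0.88, adjusted p = 2.23e-04) and Cd79a (0.71, adjusted p = 0.0403). The NK and innate lymphoid genes called higher were Eomes (2.85), Klrk1 (1.98) and Gata3 (0.74), which T cells also express, in Lig+ (adjusted p = 6.66e-04, 1.17e-04 and 0.0144, limma), and Gata3 (3.43) and Kit (0.66) in Lig- (adjusted p = 5.23e-05 and 0.00186). Ncr1 (-1.32) and Klrb1c (-0.89), of the NK and innate lymphoid list, were called lower in Lig+ (adjusted p = 0.00384 and 0.00186, limma). Klrb1c was also called lower in Lig- (-0.60, adjusted p = 0.0167, limma). Cd79b, of the B cell list, was called lower in Lig+ and Lig- (-0.62 and -0.87, adjusted p = 0.0323 and 0.0144, limma). The part of other cells in the values of S1pr1, Klf2, S1pr4 and Ccr7 was not tested.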

How the data were processed

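Each array compared DN4 RNA with DN3 RNA on 2 channels, Alexa 555 and Alexa 647, with DN4 in Alexa 647 on replicate 1 of each group, per the labels. RNA was column-purified and amplified with amino allyl nucleotides, per the labels' protocols. The deposited scanner files hold spot intensity values from Agilent Feature Extraction 9.5.1.1 (slides 1 and 2) and 9.5.3.1 (slides 3 and 4), per the file headers; the submitters' processing notes give 9.5.1.1. The series table deposited by the authors gives DN4 over DN3 as log10 ratios, equal to the scanner files' own ratios (largest difference 4.87e-08). The first 3 slides held a replicate of each group and slide 4 Lig+ replicate 4; slides 3 and 4 were scanned on another day. Replicate numbers follow sample order; Lig+ and Lig- arrays were paired only through their slide (consensus correlation on a slide 0.592), and slide was fitted as a block among the alternatives. Arrays are biological replicates per the design text; shared RNA would make p-values too small.

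From the deposited intensity values, mean signals were corrected by normexp (offset 50) and normalised by loess with limma 3.58.1 (R 4.3.3 with version 1.17.8 of the data.table package), with 1639 control spots at weight 0. Scanner outlier spots (0.354%) were set missing. A probe was kept if 1 of its channels exceeded background on 3 or more arrays (34889 of 41174). The probe with the highest mean log2 intensity, over both channels and the arrays, stood for a gene. Names came from a RefSeq gene table (mouse, GRCm38.p6). Median raw signals were 233 to 595 (DN4) and 443 to 571 (DN3), and 7 arrays limit the precision. Log2 ratios were fitted with terms for Lig+, Lig- and dye (4 residual and 2.33 prior degrees of freedom), with Benjamini-Hochberg adjustment over 23593 genes at 0.05. Channel levels were taken after loess and Aquantile. Fits were tested on simulated data. The members and gene lists were chosen with earlier results of these data known. From each pathway list up to 4 called genes with the largest absolute change were named, S1P receptors in full, and for each of the 4 genes the 3 with the most similar array ratios. Alternatives varied background, normalisation, filter, dye term, slide, scan day, probes and arrays. A gene of the FOXO and KLF2 list enters its counts but is not reported here.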

Additional observations from a re-analysis of the deposited data

Results flagged for a closer look

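The Ccr7 ratio of Lig+ replicate 2 was 3.399, against 5.08 for the nearest of the other 3 Lig+ arrays, a gap of 0.911 of the whole range. It was the only such value among 15 groups of values examined. Chance flags about 1 in 20 groups, so 1 flag among 15 is not unusual. The groups share probes and arrays and are not independent. S1pr4 differed between Lig+ and Lig- in the ratio to DN3 by 0.94 log2 units. In the DN4 channel alone S1pr1 differed by 1.88 and Ccr7 by 1.199. There an effect shared by both channels of an array does not cancel.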

How the results depend on the processing

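The rises of S1pr1, Klf2 and Ccr7 against DN3 kept their direction and passed under all 21 alternatives in both groups, as did S1pr4 in Lig+; fold changes ran from 37.8 to 97.7 for S1pr1, 11.2 (mean of its probes) to 103 for Klf2 and 18.9 to 36.3 for Ccr7 in Lig+. The count of genes called against DN3 was 8575 in Lig+ and 7382 in Lig-; it became 14408 and 14273 with scan day 1 alone, 4909 in Lig- with Lig- arrays alone, and 4010 to 8884 and 2732 to 8102 without each array in turn, lowest without replicate 1 of the group itself. Between the groups the count was 2778; it became 1628 with median centring, 5850 with slide as a random block, 5272 with slide fixed, 5520 with scan day as a term, 9786 with scan day 1 alone and 855 to 3546 without each array in turn. S1pr4 in Lig- was 0.79 to 1.04 without each array in turn. Fits to a single scan day rest on few arrays, so their p-values and counts are unreliable. Lig- replicate 3 was the only Lig- array of day 2. Klf2 probe A_52_P442031 in Lig- was 0.12 with scan day 2 alone and 0.64 (adjusted p = 0.0673, limma) with Lig- arrays alone. It was 0.50 to 0.78 without each array in turn. Its difference between the groups passed with scan day 1 alone (0.26, adjusted p = 0.033, limma) and was 0.96 with scan day 2 alone. The S1pr4 difference did not pass with Agilent's processed signals or the authors' values (0.94, adjusted p = 0.0644 and 0.0642, limma). It also did not pass without a filter (0.94, adjusted p = 0.0516) or in the DN4 channel alone (1.36, adjusted p = 0.0588). It was 0.8248 to 1.105 without each array in turn. With scan day 1 alone it passed (0.63), and with scan day 2 alone it was 1.24. S1pr1 (1.88, adjusted p = 0.00148) and Ccr7 (1.199, adjusted p = 0.0195) differed in the DN4 channel. There, S1pr4 was 1.23 and Klf2 0.61 with slide as a random block (both passed), S1pr4 was 1.17 to 1.597 and Ccr7 1.02 to 1.34 without each array in turn, and Ccr7 was 1.04 with no normalisation between arrays. Sphk2 in Lig+ moved in opposite directions on the scan days (0.4153, adjusted p = 8e-04, limma, on day 1 and -0.4966 on day 2). So did Mef2d in Lig+ (0.3302, adjusted p = 0.00165, limma, on day 1 and -0.5104 on day 2). Mef2d in Lig+ was also above 0 with Lig+ arrays alone (0.007419) and with the mean of its probes (0.1992). The same was so without Lig- replicate 1 (0.007419), Lig+ replicate 3 (0.04038) or Lig+ replicate 4 (0.09266). Values that had not passed turned sign for Il7r in Lig+ (-0.10) and S1pr2 in Lig- (0.11) with scan day 2 alone, and for Sphk2 in Lig+ with median centring (-0.054), no dye term (-0.041), scan day as a term (-0.0045), scan day 2 alone (-0.50), without slide 2 (-0.059) and without Lig+ replicate 1 or 2 (-0.14 and -0.071). Of 1414 further values of named genes, 1298 kept direction and side of the threshold. The causes were not tested. With the dye term, leaving out replicate 1 of either group gives the same contrast, since the other alone then fixes the dye effect. The labels give no replicate numbers, but replicates 1, 2 and 3 of both groups shared slides 1, 2 and 3, so the fit with slide fixed is also the paired fit; in it the S1pr4 difference was 0.84 and passed.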
